A study of Homo sapiens with 6 samples.

Results

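The base of the primary cilium was followed through 30 genes of the transition zone, the inversin compartment and the distal appendages in HEK293T, an established cell line derived from human embryonic kidney. Cells received either miR-34a as a duplex or the AllStars negative control, described as an siRNA in one label and as a miRNA in another, and RNA was taken after 18 h for bulk sequencing (n = 3 libraries per group). No genotype differs between the groups, and every library comes from this single transfected line. The 30 genes, of 63140 in the counts table, were chosen by their known place at the ciliary base, with the values of this same comparison already known. In those values TCTN2 stood among the largest rises, so the counts below describe the chosen genes and are no independent support for a direction. All 30 passed the filter on low counts, with 56 to 5016 reads per gene and library.

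The cilium is a microtubule-based antenna that grows from the older centriole of a cell, the mother centriole. Distal appendages are spokes on that centriole that dock it to the membrane and license the axoneme to grow. The transition zone is the stretch just above it, where Y-shaped links join the microtubules to the membrane and control which proteins enter and leave. Its proteins fall into an MKS module, rich in membrane proteins, and an NPHP module, held on shared scaffolds, while the inversin compartment lies further up the shaft. Mutations in many of these genes cause ciliopathies such as Joubert syndrome, Meckel syndrome and nephronophthisis. Mature miR-34a-5p, shown because its seed (bases 2 to 8, in capitals) defines the target matches searched later, has this RefSeq sequence:

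hsa-miR-34a-5p: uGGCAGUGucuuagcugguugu

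With miR-34a, 16 of the 30 genes rose and none fell (adjusted p under 0.05 by the edgeR quasi-likelihood test, adjusted over all 17427 genes tested). Over all tested genes 5.38% rose and 6.7% fell. The rises ran from 1.18-fold in MKS1 to 2.12-fold in TCTN2, and the median log2 fold change of the 30 was 0.30, against -0.004 over all tested genes. By an unadjusted p under 0.05 only 1 of the genes was lower, NEK8, and DESeq2 called 17 higher and none lower. In 20 of the 30 every miR-34a library lay above every control library, as did 13.1% of all tested genes. In 1, NEK8, every miR-34a library lay below, as did 14.2% of all tested genes. In bulk RNA, a change in the RNA per cell and a change in the share of cells that make it cannot be told apart.

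Of the 16 rises, 11 kept their call under all 13 alternatives tried, and 5, those of MKS1, B9D1, SCLT1, TTBK2 and RPGR, lost it when single libraries were left out. The count of rises was 12 without control replicate 2, 13 without control replicate 3, miR-34a replicate 2 or miR-34a replicate 3, 14 without miR-34a replicate 1 and 15 without control replicate 1. The submodules differed in their counts. In the MKS module 8 of 14 genes rose, among the NPHP genes and their scaffold 3 of 4, in the inversin compartment none of 3, among the distal appendage genes 4 of 6, and of RPGR, OFD1 and CSPP1 1 of 3. The differences between submodules were not tested.

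**Figure D1:**
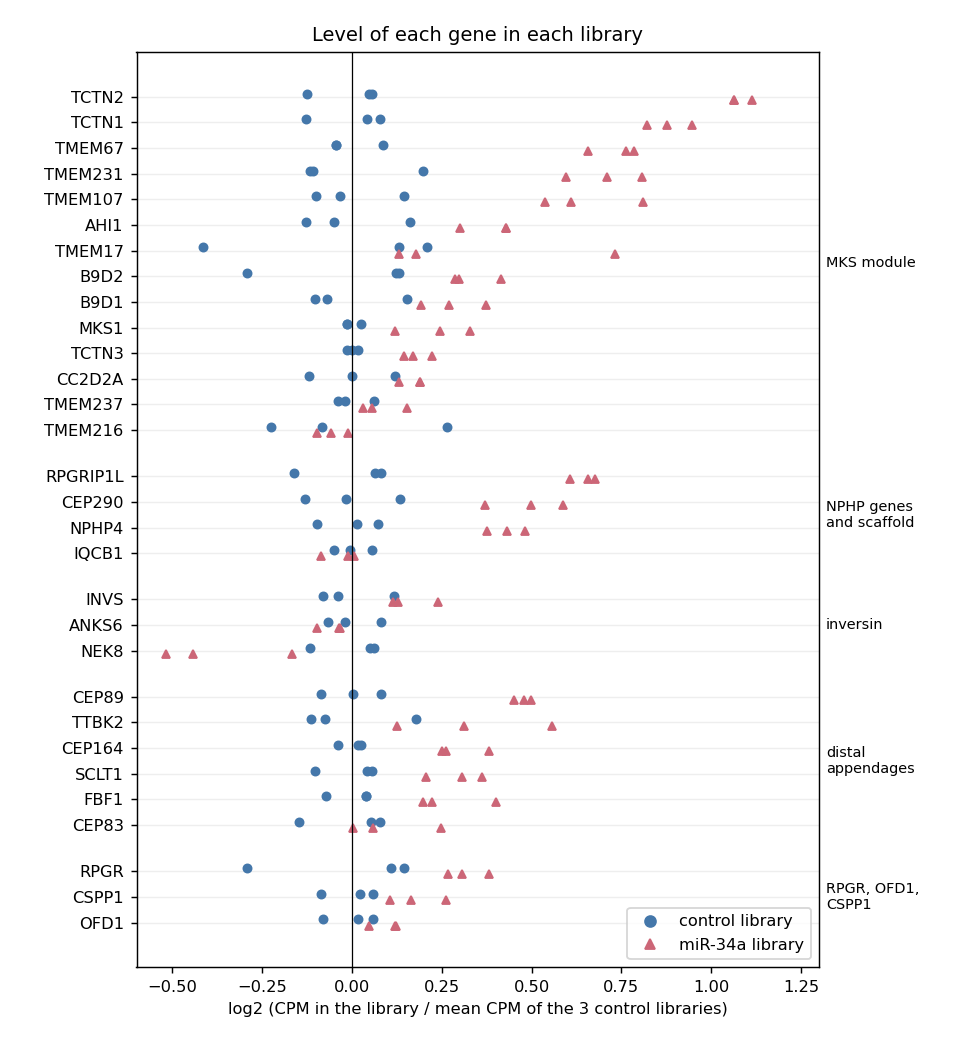
Each row is a gene and each point a library, placed on the log2 ratio of its CPM (counts scaled to a common library size) to the mean of the 3 control libraries, with circles for control and triangles for miR-34a. The triangles of the MKS genes at the top lie well to the right of the circles (TCTN2 at 37.8 to 39.2 CPM against 16.6 to 18.8), while those of NEK8 lie to the left.

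Of the 3 tectonins of the MKS module, TCTN2 and TCTN1 rose and TCTN3 did not pass. TCTN2, a tectonin needed for ciliary gating and Hedgehog signalling (ENSG00000168778, chromosome 12 at 123671113 to 123708403, plus strand), stood at 18.8, 16.6 and 18.7 CPM in control replicates 1 to 3 and at 39.2, 37.8 and 37.8 CPM in the miR-34a ones. The groups were far apart (on the log2 scale the gene rose by 1.09 ± 0.08, SE; edgeR adjusted p = 1.57e-09). TCTN1, the secreted tectonin (chromosome 12 at 110614027 to 110649430, plus strand), stood at 31, 35.8 and 34.9 CPM in the control libraries and at 59.9, 65.3 and 62.3 CPM with miR-34a. Its lowest miR-34a library was well above its highest control, and the log2 fold change was 0.88 ± 0.08 (adjusted p = 1e-08). TCTN3, the remaining tectonin, stood at 73.9, 72.4 and 73.1 CPM in the control libraries and at 85.3, 82.2 and 80.8 CPM with miR-34a. Its groups did not overlap, but it did not pass by edgeR (log2 fold change 0.18, adjusted p = 0.091), while DESeq2 called it at 0.18, adjusted p = 0.042.

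Among the membrane proteins of the MKS module, 3 rose clearly and 3 did not pass. TMEM67, also called meckelin, a receptor-like protein of the transition zone, stood at 21, 19.2 and 19.2 CPM in the control libraries and at 34.1, 31.2 and 33.6 CPM with miR-34a (log2 fold change 0.74 ± 0.08, adjusted p = 6.86e-07 by edgeR). TMEM231, which helps to hold the complex at the transition zone, stood at 8.91, 11 and 8.86 CPM and then at 16.8, 15.7 and 14.5 CPM (0.70 ± 0.11, adjusted p = 0.000101). TMEM107, a small 4-pass membrane protein that recruits other members, stood at 13.0, 14.7 and 12.4 CPM and then at 20.3, 23.3 and 19.3 CPM (0.65 ± 0.10, adjusted p = 6.88e-05). In all 3 genes each miR-34a library was above each control library. TMEM17, at 2.44 ± 0.535 and 3.16 ± 0.774 CPM, and TMEM216, at 12.4 ± 2.24 and 11.9 ± 0.352 CPM (SD, n = 3), had groups that overlapped (log2 fold changes 0.37 ± 0.22 and -0.07 ± 0.12, adjusted p = 0.321 and 0.794). So did TMEM237, the most abundant of these membrane proteins in CPM, which stood at 65.7, 66.6 and 70.4 CPM in the control libraries and at 75.0, 70.1 and 68.9 CPM with miR-34a (0.08 ± 0.07, adjusted p = 0.558). The value of TMEM216 turned to 0.09 without control replicate 2, the library in which it stood highest, at 14.9 CPM.

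Of the soluble and B9-domain proteins of the MKS module, AHI1, MKS1 and B9D1 rose, and B9D2 and CC2D2A did not pass. AHI1, also called jouberin, rose from 44.7, 38.6 and 36.6 CPM in the control libraries to 49.3, 53.8 and 53.8 CPM with miR-34a (log2 fold change 0.39 ± 0.08, adjusted p = 0.00149 by edgeR). The B9-domain proteins MKS1 and B9D1 had log2 fold changes of 0.23 ± 0.08 and 0.28 ± 0.09, close to the threshold (adjusted p = 0.0447 and 0.0319 by edgeR). MKS1 stood at 42.7, 41.6 and 41.6 CPM in the control libraries and at 49.8, 52.7 and 45.6 CPM with miR-34a. Leaving out control replicate 2 raised its adjusted p to 0.12, control replicate 3 to 0.14, miR-34a replicate 1 to 0.11 and miR-34a replicate 2 to 0.25. B9D1 stood at 28.1, 33.6 and 28.8 CPM and then at 39.1, 34.5 and 36.4 CPM, and its groups nearly touched. Its adjusted p rose to 0.076 without control replicate 1, to 0.14 without control replicate 3 or miR-34a replicate 1 and to 0.059 without miR-34a replicate 3. It shares 6.63% of its exonic length with MAPK7 on the opposite strand. B9D2, the third B9-domain protein, was scarce, at 2.13 ± 0.337 and 2.69 ± 0.135 CPM (SD, n = 3; log2 fold change 0.34 ± 0.21), and CC2D2A, a coiled-coil and C2-domain protein, stood at 14.9 ± 1.22 and 16.8 ± 0.383 CPM (0.17 ± 0.10). Both had groups that did not overlap, and neither passed (adjusted p = 0.343 and 0.298).

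**Figure D2:**
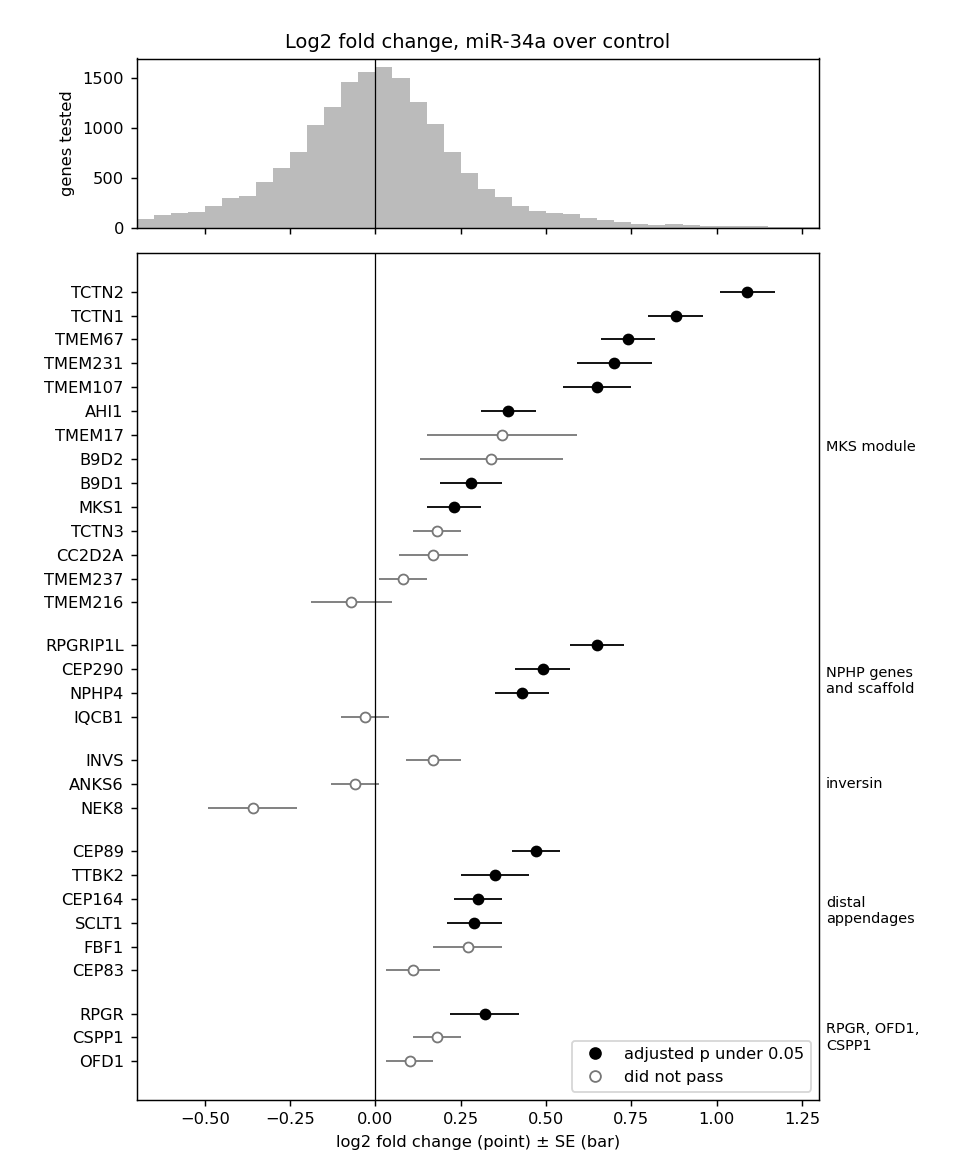
The upper panel counts all tested genes by log2 fold change, miR-34a over control (439 genes lie outside the plotted range), and the lower panel gives each gene's log2 fold change with its SE, filled where the adjusted p was under 0.05. The 16 filled points lie between 0.23 (MKS1) and 1.09 (TCTN2), and the genes of the inversin compartment between -0.36 (NEK8) and 0.17 (INVS).

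The promoters of the MKS module held all the X-box motifs found among these genes. The X-box is the DNA element bound by RFX transcription factors, which are known for switching on ciliary genes. It was searched, on both strands and with 0 to 3 bases between its half-sites, in RefSeq promoters from 250 bases before to 50 after the start (GRCh38.p14). Entries were found for 27 of the 30 genes, the others being TCTN2, TMEM67 and CSPP1. A match stood in 5 of the 12 MKS genes with an entry and in none of the 15 other genes. Over all tested genes with an entry 2.17% had one, and 1.31% of all 35116 promoters did. With any base allowed at the ambiguous positions the counts were 8 of 12 and 0 of 15, TMEM17, TMEM231 and AHI1 being added, against 7.27% of tested genes with an entry. The 5 matches are shown in windows of 30 bases on the gene's strand, with the motif in capitals, because matches were found in the MKS module and in no other submodule:

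TCTN1, chr12:110614121-110614150, plus strand: ctgtcgcgGTTGCCGGGCAACgcgctgtcc

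TCTN3, chr10:95694121-95694150, minus strand: cactgacgGTTGCCAGGCAACggaggcacg

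TMEM107, chr17:8176404-8176433, minus strand: cgtacacgGTTACCAAGGCAACtgggcggt

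B9D1, chr17:19378085-19378114, minus strand: ctgggactGTTACCTTGGCTACtggctccc

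B9D2, chr19:41364136-41364165, minus strand: agcctgctGTTGCCCCAGCAACaaccacgg

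The motif of TMEM107 began 45 bases before the RefSeq start, that of B9D2 8 bases before it and that of TCTN1 at its first base. In TCTN3 and B9D1 it lay 215 and 193 bases before the RefSeq start. Measured from the outermost GENCODE start, the motif began 1 base downstream in TCTN3, 16 in B9D2, 87 in B9D1 and 102 in TCTN1, and 26 bases upstream in TMEM107. Of these 5 genes TCTN1, TMEM107 and B9D1 rose, and their median log2 fold change was 0.34. It was 0.28 in the 22 genes with an entry and no match, of which 11 rose. TCTN3 and B9D2 had a match and did not pass, and RPGRIP1L, CEP290 and NPHP4 rose with no match in the window. Over all tested genes with an entry 20.9% of the 258 with a motif rose, against 6.13% of the 11626 without. The 250 bases before the start of TMEM107 (chr17:8176381-8176630, minus strand) give the wider setting of the motif in a gene that rose:

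TMEM107: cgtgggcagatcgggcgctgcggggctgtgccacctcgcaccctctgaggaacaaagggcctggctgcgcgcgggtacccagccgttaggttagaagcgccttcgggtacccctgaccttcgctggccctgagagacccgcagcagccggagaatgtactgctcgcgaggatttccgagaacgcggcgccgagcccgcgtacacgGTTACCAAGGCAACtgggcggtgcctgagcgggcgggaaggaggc

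Of the NPHP genes and their scaffold, 3 rose in every library and 1 did not move past the spread. RPGRIP1L, the scaffold on which both modules assemble, rose from 34.9, 29.5 and 34.5 CPM in the control libraries to 50.3, 52.0 and 52.7 CPM with miR-34a (log2 fold change 0.65 ± 0.08, adjusted p = 1.93e-06 by edgeR). CEP290, a long coiled-coil protein of the Y-links, rose from 99.3, 82.7 and 89.6 CPM to 117, 128 and 136 CPM (0.49 ± 0.08, adjusted p = 6.61e-05), with no overlap between the groups. NPHP4, a binding partner of RPGRIP1L, rose from 23.1, 24.1 and 21.4 CPM to 30.9, 29.7 and 32.0 CPM (0.43 ± 0.08, adjusted p = 0.0007). IQCB1, also called NPHP5, which binds CEP290, stood at 69.6, 67.5 and 72.6 CPM and then at 70.1, 65.8 and 69.3 CPM. Its groups overlapped, and the log2 fold change was -0.03 ± 0.07 (adjusted p = 0.84).

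The inversin compartment was the submodule in which no gene passed. INVS, inversin itself, which lays down the compartment, stood at 31.8, 27.7 and 28.5 CPM in the control libraries and at 31.7, 32.0 and 34.6 CPM with miR-34a (log2 fold change 0.17 ± 0.08, adjusted p = 0.221 by edgeR). ANKS6, an ankyrin-repeat protein that activates NEK8, stood at 77.1, 82.7 and 74.7 CPM and then at 73.1, 76.2 and 76.4 CPM, with overlapping groups (-0.06 ± 0.07, adjusted p = 0.694). NEK8, the kinase of the compartment, stood at 8.83, 8.90 and 7.86 CPM and then at 5.96, 6.27 and 7.60 CPM. All its miR-34a libraries were lower than its controls, replicate 3 only narrowly so, and it did not pass (-0.36 ± 0.13, adjusted p = 0.0816). Without miR-34a replicate 3 its log2 fold change was -0.48, adjusted p = 0.039. NEK8 shares 2.26% of its exonic length with TLCD1 on the opposite strand. TLCD1 had a log2 fold change of -0.337 and did not pass, and the part of shared reads was not tested. By an unadjusted p under 0.05 no gene of the compartment was higher and NEK8 was lower, and DESeq2 called none in either direction.

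Of the 6 distal appendage genes, 4 rose and 2, FBF1 and CEP83, did not pass. CEP89, also called CEP123, an appendage component (chromosome 19 at 32875925 to 32971991, minus strand), rose from 41.8, 39.6 and 37.2 CPM in the control libraries to 55.8, 55.0 and 54.0 CPM with miR-34a (log2 fold change 0.47 ± 0.07, adjusted p = 5.94e-05 by edgeR). CEP164, which recruits TTBK2, rose from 70.8, 71.2 and 68.1 CPM to 83.9, 83.2 and 91.1 CPM (0.30 ± 0.07, adjusted p = 0.00444). In both genes the groups were clearly apart. SCLT1, an appendage component needed to bring in CEP164, rose from 31.7, 28.4 and 31.4 CPM to 37.7, 39.2 and 35.2 CPM (0.29 ± 0.08, adjusted p = 0.0166). Its adjusted p was 0.097 without control replicate 2 and 0.10 without miR-34a replicate 2. It shares 3.71% of its exonic length with JADE1 and 3.51% with C4orf33, both on the opposite strand.

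TTBK2, the kinase that licenses the axoneme to grow, passed with groups that overlapped. It stood at 28.5, 23.3 and 23.9 CPM in the control libraries and at 27.5, 31.3 and 37.1 CPM with miR-34a, so that miR-34a replicate 1 lay below control replicate 1 (log2 fold change 0.35 ± 0.10, adjusted p = 0.0223 by edgeR). The call was lost in 3 of the fits with a library left out: the adjusted p was 0.15 without control replicate 2, 0.10 without control replicate 3 and 0.19 without miR-34a replicate 3, where the log2 fold change was 0.225. FBF1, an appendage protein that takes part in gating, stood at 14.4 ± 0.662 and 17.5 ± 1.37 CPM (SD, n = 3; log2 fold change 0.27 ± 0.10, adjusted p = 0.0726), with no overlap between the groups. CEP83, the innermost component, on which the others depend, stood at 44.1, 37.7 and 43.4 CPM and then at 43.5, 41.9 and 49.6 CPM, and its groups overlapped (0.11 ± 0.08, adjusted p = 0.461). Without control replicate 2, the count of distal appendage genes that rose was 2 of 6.

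Of the remaining genes, RPGR, a GTPase regulator of the transition zone that is mutated in X-linked retinitis pigmentosa, stood at 27.1, 20 and 26.4 CPM in the control libraries and at 29.5, 30.3 and 31.9 CPM with miR-34a. Control replicate 2 was the low value (log2 fold change 0.32 ± 0.10, adjusted p = 0.0294 by edgeR), and without it the log2 fold change was 0.193, adjusted p = 0.22. Its adjusted p was 0.069 with miR-34a replicate 2 left out and 0.089 with replicate 3 left out. OFD1, a protein of the distal centriole and of centriolar satellites, stood at 65.7, 59.7 and 63.8 CPM in the control libraries and at 68.7, 65.2 and 68.6 CPM with miR-34a, with overlapping groups (log2 fold change 0.10 ± 0.07, adjusted p = 0.431). CSPP1, a microtubule-binding protein of the ciliary base, stood at 57, 51.5 and 55.5 CPM and then at 58.9, 61.3 and 65.6 CPM. Its groups did not overlap, but it did not pass (0.18 ± 0.07, adjusted p = 0.117).

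The submodules were also set side by side in each library. The median over the MKS genes of log2 CPM, each gene set to 0 at its control mean, was 0.02, -0.01 and -0.03 in the control libraries and 0.34, 0.37 and 0.28 with miR-34a. For the 4 NPHP and scaffold genes it was 0.05, -0.09 and 0.02 and then 0.40, 0.44 and 0.54. For the 6 distal appendage genes it was 0.07, -0.05 and 0.00 and then 0.24, 0.34 and 0.32. The 3 inversin genes stood at 0.05, 0.06 and -0.06 and then at -0.10, -0.04 and -0.03, with no gap between the groups beyond the spread of the controls. RPGR, OFD1 and CSPP1 stood at 0.06, -0.09 and 0.02 and then at 0.12, 0.17 and 0.26. No test was made of these medians, since the genes were chosen with this comparison known. Of the 30 genes, 23, 22 and 24 were above all controls in miR-34a replicates 1, 2 and 3. The matching shares over all tested genes were not worked out, so these counts have no background to be set against.

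**Figure D3:**
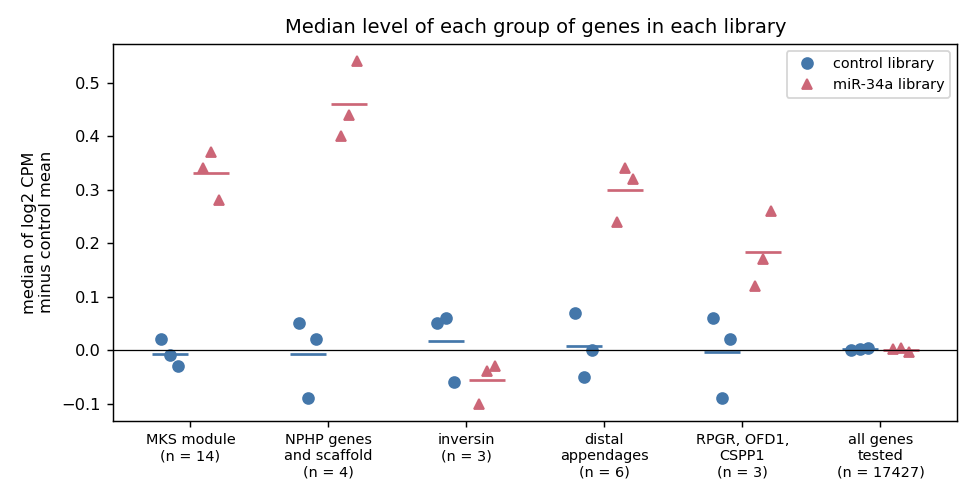
Points give, for each library (circles control, triangles miR-34a), the median over a submodule's genes of log2 CPM minus the gene's control mean, and bars give the mean of the 3 libraries. All miR-34a points of the MKS, NPHP and distal appendage genes lie at 0.24 or above, those of the 3 inversin genes between -0.10 and -0.03, and those of all tested genes near 0.

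Per exon length, the genes that rose most were not the most abundant ones. In the control libraries the 30 genes ranged from 0.819 CPM per kb of exons (TMEM17) to 22.9 (IQCB1), with a median of 4.25, against 3.75 over the 16756 tested genes with a known length. The most abundant per kb, IQCB1 and TCTN3 at 22.9 and 22.7 CPM per kb, did not pass. TCTN1 and TCTN2 stood at 3.53 and 3.54 CPM per kb in the control, close to that median, and at 6.5 and 7.5 with miR-34a. TCTN3, at 22.7 CPM per kb, was thus the most abundant of the 3 tectonins in the control.

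**Figure D4:**
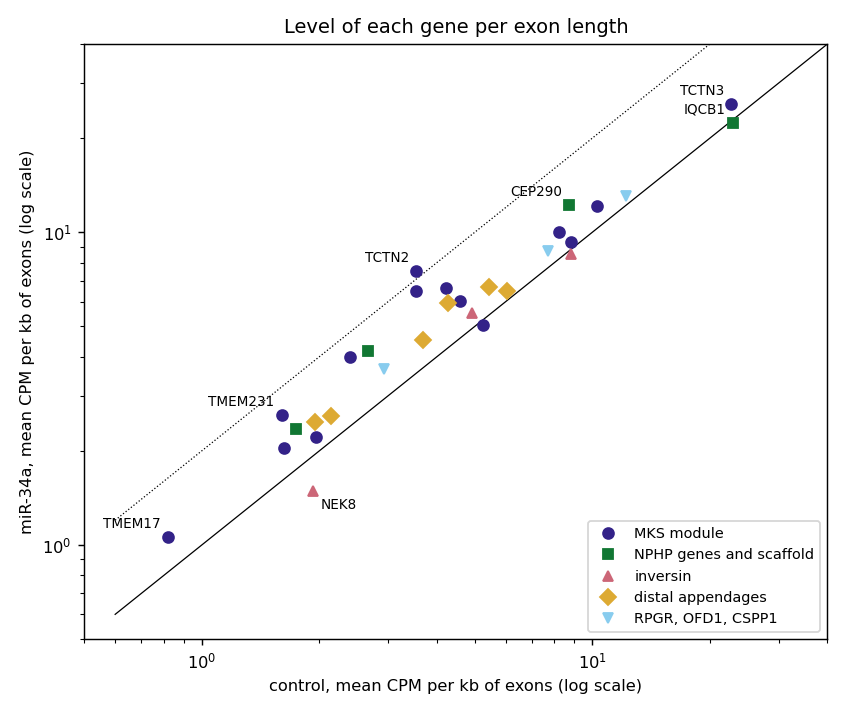
Each point is a gene, with its mean CPM per kb of exons in the control libraries on the x axis and in the miR-34a libraries on the y axis, both log scales, and a marker for its submodule. The solid line marks equal levels and the dotted line a doubling; TCTN2 lies just above the dotted line (3.54 and 7.5), and NEK8 lies below the solid one (1.93 and 1.49).

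Matches to the miR-34a seed were few. In the 3′ UTR of the transcript with the longest coding sequence, 3 of the 29 genes classed (10.3%) held a 7mer or 8mer match, against 20.9% of the 12951 classed genes. FBF1 was not classed, since its transcript has no annotated 3′ UTR. The effect of these matches was not tested. The matches below are shown because they are all the 7mers and 8mers found in these transcripts. Each is given with its 5′ context on the mRNA strand, the match in capitals (GENCODE 29, GRCh38):

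CEP89, 8mer, chr19:32877552-32877559, minus strand: tagagtccctgcccCACTGCCA

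RPGRIP1L, first 7mer-A1, chr16:53601873-53601879, minus strand: tccctccttctcataACTGCCA

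RPGRIP1L, second 7mer-A1, chr16:53599308-53599314, minus strand: aaattatcatggtttACTGCCA

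TMEM237, first 7mer-A1, chr2:201622175-201622181, minus strand: cattgataatatgtaACTGCCA

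TMEM237, second 7mer-A1, chr2:201621332-201621338, minus strand: tgtatgtagttacaaACTGCCA

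The 8mer of CEP89 starts 1603 bases after the stop codon in a 3′ UTR of 3237 bases, and the gene rose, with a log2 fold change of 0.47. The matches of RPGRIP1L start 197 and 2762 bases after its stop codon, and the gene rose by 1.57-fold. TMEM237, with matches 2074 and 2917 bases after the stop codon, had a log2 fold change of 0.08 ± 0.07. ANKS6 held 6mers only in this transcript and an 8mer in another annotated one, and its log2 fold change was -0.06. Over all annotated coding transcripts 4 of the 29 genes (13.8%) held a 7mer or 8mer, against 25.9% of the classed genes. NEK8, the gene with the lowest value of the 30, held no match.

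The genes that share a start region with these were read as well, and none of them passed. Of the 30 genes, 7 have a protein-coding gene on the opposite strand whose start lies within 1000 bases of theirs. CEP290 rose with a log2 fold change of 0.49, and TMTC3, which starts 80 bases away, had -0.07 (adjusted p = 0.679 by edgeR). CEP89 had 0.47, and FAAP24, 218 bases away, 0.26 (adjusted p = 0.125). B9D1 and SCLT1 rose, while their neighbours MAPK7 (-0.09) and C4orf33 (0.23) did not pass. The pairs of IQCB1 with EAF2, INVS with ERP44 and OFD1 with TRAPPC2 had no gene past the threshold. The difference within a pair was not tested.

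Other genes of the ciliary base, listed by the structure they belong to, rose in part, with 17 of 44 higher and none lower (1, C3orf14, was lower at an unadjusted p under 0.05, and DESeq2 called 17 higher and none lower). Over all tested genes 5.38% rose and 6.7% fell. The median log2 fold change of the 44 was 0.19, against -0.004 over all tested genes. In the transition zone list 4 of 15 rose, among them ARMC9, a basal body protein of Joubert syndrome (log2 fold change 0.71 ± 0.08). In the distal centriole list 5 of 7 rose, led by PIBF1 (0.61 ± 0.07) and CCP110 (0.57 ± 0.07), a cap that holds back ciliary growth. In the subdistal appendage list 4 of 7 rose, led by CEP128 (0.51 ± 0.09) and ODF2 (0.33 ± 0.07). In the list of ciliary lipid and lipidated-cargo genes 2 of 7 rose, among them UNC119B (0.29 ± 0.07), a carrier of lipidated cargo. Of 6 further distal appendage genes ANKRD26 (0.28 ± 0.09) and LRRC45 (0.21 ± 0.07) rose, and of 2 further inversin compartment genes, ANKS3 among them, neither passed.

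That count depended on single libraries: 9 of the 44 rose without control replicate 2 or control replicate 3, 11 without miR-34a replicate 2 and 10 without miR-34a replicate 3. LRRC45 lost its call without any one library (adjusted p = 0.071 to 0.17 by edgeR), with no filter on low counts (0.062) and with the replicate block (0.12), and that of ANKRD26 was lost on leaving out control replicate 2 (0.26), control replicate 3 (0.069) or miR-34a replicate 3 (0.18). ARMC9, PIBF1, CCP110, CEP128, ODF2 and UNC119B kept theirs under all 13 alternatives.

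Library totals ranged from 24728662 to 36650331 reads, and TMM factors from 0.981 to 1.016. The 6 genes chosen as markers of HEK293T cells, among them PAX2, KRT8, KRT18, VIM and CDH2, were all detected, and none passed the test. Of 9 multiciliated cell markers 4 rose (FOXJ1, DNAI1, DNAAF1 and RSPH1) and 1, MCIDAS, fell, while TEKT1 had no read in any library. FOXJ1, DNAI1 and RSPH1 passed the filter on low counts only through the miR-34a libraries, where they are high. Their calls therefore carry no weight in this count. RSPH1 had 4, 32 and 16 reads in the control libraries, and DNAAF1, which did not depend on this, had 46, 46 and 45. The 9 multiciliated cell markers summed to 11.3 to 13.2 CPM in the control libraries and 14.5 to 17.5 CPM with miR-34a. FOXJ1 itself had 0, 10 and 0 reads in the control libraries and 11, 18 and 18 with miR-34a. Of 8 proliferation markers MCM2 fell, with a log2 fold change of -0.44, and none rose; their summed level was 2400 to 2620 CPM in the control libraries and 2560 to 2670 CPM with miR-34a. The part of these markers in the results above was not tested. Of the leukocyte, hepatocyte and fibroblast lists, CD3E, COL1A2 and DCN had no read in any library, PTPRC had 2 reads in 1 library, and COL1A1 stood above 20 CPM in all.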

How the data were processed

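The authors deposited raw counts of reads for each Ensembl gene in each of the 6 libraries, with no normalization. Per the submitters' processing notes, the build was GRCh38, and the tools named are edgeR 3.42.4, Subread 2.0.3 with featureCounts, and STAR 2.7.11a. Annotation release, strand setting and treatment of multi-mapping reads: not given in the sources used here. The library kit named in the labels does not mark strand, so reads where genes overlap on opposite strands cannot be told apart. Such overlap also takes in 6.61% of the exonic length of TCTN1 (with HVCN1), 3.86% of CEP290 (C12orf29) and 3.04% of B9D2 (TMEM91). Smaller shares per partner were found in NPHP4, CEP83 and CSPP1.

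Genes were filtered with edgeR's filterByExpr (minimum count 10, minimum total 15), scaled by TMM and tested by quasi-likelihood (edgeR 4.0.16, limma 3.58.1, R 4.3.3) on group alone over 17427 genes with Benjamini-Hochberg adjustment and a threshold of 0.05. CPM are counts over the TMM library size, and levels per kb use GENCODE 29 exons. SE is the absolute log2 fold change over the root of the F statistic. Target matches were read in the transcript with the longest coding sequence. The fit was tested on simulated data. P-values rest on the spread between libraries described as biological replicates. The members, gene lists, submodules and motif were chosen with earlier results of these data known. All 30 genes are named; from each other list the 2 genes past the threshold with the lowest adjusted p, or the most abundant, are named, other names having been chosen after their values were seen. Some genes of these other lists are counted but not reported by name here. Alternatives were DESeq2 1.42.0, other scalings and filters, the replicate block and leaving out each library.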

Additional observations from a re-analysis of the deposited data

How the results depend on the processing

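The count of members that rose lay between 12 and 17 over the 13 alternatives, 15 with the replicate number as a block, and the direction of the median of the 30 stayed the same in each. In the labels same-numbered libraries share only a number, and whether they were handled together is not stated. Their deviations from the group means correlated at -0.025, 0.022 and -0.076, which cannot settle it with 3 libraries per group. With the block MKS1 alone among the members lost its call (adjusted p = 0.085 by edgeR). Over all genes 807 rose and 1023 fell with the block, against 938 and 1167 without it. Not every library correlated best with its own number. Leaving out single libraries moved the count of members that fell between 0 and 1 (NEK8), the median log2 fold change of the MKS module between 0.290 and 0.445, and the count of other ciliary base genes that rose between 9 and 19. Over all genes the count of rises moved between 525 and 1287. TMEM216 lay between -0.157 and 0.089 with single libraries left out, the latter without control replicate 2, and ANKS3, at 0.001, turned to -0.006 with the replicate block and lay between -0.064 and 0.104 with single libraries left out; neither passed in any of these fits. Allowing any base at the ambiguous positions of the X-box moved the members with a match from 5 to 8. The cause of these shifts was not tested, beyond the smaller number of libraries. TMEM17 and B9D2, near 2 CPM, have SEs of 0.22 and 0.21, so changes of the size seen in MKS1 were not detectable at their depth.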
